A study of Mus musculus with 10 samples.

Results

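Sirt6 knockout (Sirt6-/-, KO) and wild-type (WT) mouse samples were compared while both were under TNF-alpha, at 1.5, 6 and 24 h of treatment. The members are 6 of the 10 arrays of the series, chosen by label: 3 TNF-treated KO arrays, each paired with the WT array of the same time. The remaining 4 arrays, 2 untreated per genotype, serve below only as a comparison. On each array total RNA of the sample was labelled with Cy5 and a universal mouse reference RNA with Cy3. Strain, age, dose of TNF-alpha, cell type and the form of the knockout allele are not given in the sources used here. There was 1 array per genotype and time, so no value at a single time has a replicate. The only replication for a mean over the 3 times is thus the spread of KO minus WT between times. It is not stated whether the arrays hold separate cultures, so this spread may be partly technical. The standard errors (SE) below are moderated by the test used, limma, which drew each gene's spread towards that of all genes. Where the 3 differences were nearly equal, the SE mostly reflects other genes.

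Sirt6 encodes a nuclear, NAD-dependent deacetylase that acts on histone H3 at chromatin. TNF-alpha is an inflammatory cytokine that binds receptors at the cell surface and frees NF-kB transcription factors from their cytoplasmic inhibitors. NF-kB then enters the nucleus, binds short sites called kB motifs, and switches on chemokines, cytokines, adhesion molecules and its own inhibitors. SIRT6 has been described as a partner of the NF-kB subunit RelA that lowers histone acetylation at NF-kB target promoters. The comparison addresses whether NF-kB target genes and other genes stand at another level without Sirt6 once the pathway is active.

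The sites through which NF-kB acts can be read in the promoters of several genes measured here. The windows below were taken from RefSeq promoters (mouse build GRCm38.p6), each on the strand of its gene, 5′ to 3′, and show the best-known feedback inhibitors and chemokines of the pathway. Capitals mark 1 match per window to the kB letters, which are GGG, any 2 bases and TTTCC, read on either strand. The windows of Cxcl1 and Cxcl2 each hold a further match left in lower case, 89 and 78 bases before the transcription start.
Tnfaip3 (chr10:19015411-19015447, minus strand): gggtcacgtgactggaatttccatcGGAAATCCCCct
Nfkbia (chr12:55492648-55492701, minus strand): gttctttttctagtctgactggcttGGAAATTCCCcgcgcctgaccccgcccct
Cxcl1 (chr5:90891149-90891208, plus strand): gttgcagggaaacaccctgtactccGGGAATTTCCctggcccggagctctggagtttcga
Cxcl2 (chr5:90903777-90903836, plus strand): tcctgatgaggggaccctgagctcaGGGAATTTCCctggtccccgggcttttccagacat
Cxcl3 (chr5:90786003-90786062, plus strand): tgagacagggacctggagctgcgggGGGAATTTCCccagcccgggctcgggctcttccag
Ccl20 (chr1:83116661-83116720, plus strand): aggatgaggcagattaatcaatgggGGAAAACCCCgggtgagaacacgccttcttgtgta
The 3 CXC chemokine genes carry the same 10 letters in capitals at 71, 97 and 73 bases before the transcription start (Cxcl1, Cxcl2 and Cxcl3). The match in Tnfaip3 starts 12 bases and that in Nfkbia 29 bases before the start. Between 250 bases before and 50 bases after the start, 1.85% of the 11791 tested genes with a promoter sequence held the kB letters. By list, 6 of 21 NF-kB pathway genes, 3 of 12 CXC and CX3C chemokines, 2 of 14 CC chemokines and 1 of 18 inflammatory effectors held them. A match is a run of letters and no measurement of binding.

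The deposited value of a spot is 1 log ratio, read here as log2 of Cy5 over Cy3, sample over reference. The labels give the dyes but no base and no direction of the ratio, and the reading also rests on Sirt6 being lower in KO at 1.5 and 6 h. Another base would scale the folds and keep directions and tests, while an inverse ratio would turn every higher into lower. Each array was centred on its median, so a value of 0 is the array's typical gene. The values are relative to the reference RNA and do not rank genes against each other within a sample. Of 38784 spots, 38243 to 38550 had a value on each of the 6 arrays, and 14564 genes with a value on all 6 were tested. Array medians before centring lay between -0.23 and 0.01, and correlations between the arrays over spots between 0.50 and 0.72, the lowest being that of the 24 h pair. Fibroblast and mesenchymal markers stood above the reference on all 6 arrays (list medians 0.46 to 0.90), macrophage and myeloid markers below it (-1.50 to -0.58), and epithelial markers slightly below (-0.37 to -0.12). Smooth muscle and myofibroblast genes stood higher than the fibroblast list (1.1 to 2.0). Within the fibroblast list Dcn stood far below the reference on all 6 arrays (-4.3 to -2.0). By the image numbers of the labels all WT arrays precede all KO ones, so that this order and genotype cannot be told apart.

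Sirt6 itself was measured with 2 probes. On the WT arrays it stood at -0.15, 0.09 and -0.16 at 1.5, 6 and 24 h. On the KO arrays it stood at -0.75 and -1.16 at 1.5 and 6 h, and at -0.05 on the array labelled KO 24 h. As means of the 2 probes, the KO values at 1.5 and 6 h were below all WT values. This is no check of the labels, since these values helped to set the direction of the ratio. For the first and second probe, KO minus WT was -0.95 and -0.24 at 1.5 h and -0.58 and -1.91 at 6 h. The first probe on the KO 6 h array (-0.35) stood slightly above its WT 24 h value (-0.38). At 24 h the mean of the probes was at the WT level. The first probe stood higher on the array labelled KO 24 h than on the WT 24 h array (-0.11 against -0.38), and the second lay close to it (0.00 against 0.07). KO minus WT was -0.60, -1.24 and 0.11, a mean of -0.58 (SE 0.29) that did not pass (limma, adjusted p = 0.932). On the untreated arrays, KO minus WT of Sirt6 was -0.88, below 0 in all 4 pairings of these arrays. The position of the probes relative to the deletion is not known. In what follows the KO value at 24 h is always that of the array labelled KO 24 h, whose label carries this doubt, and most counts over 3 times are also given for 1.5 and 6 h alone.

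No gene passed in the mean of KO minus WT over the 3 times. By limma with a Benjamini-Hochberg adjusted p under 0.05, 0 of 14564 genes were called, a share of 0%, and the smallest adjusted p was 0.932. At an unadjusted p under 0.05 there were 282 genes higher in KO (1.94%) and 332 lower (2.28%). A single alternative gave calls: among the 7282 genes with the larger spread over arrays, 34 passed, 18 higher and 16 lower. There limma assigned every gene the same standard error, and the call followed size alone. The spread was taken over the same 6 arrays and included the KO minus WT difference under test, so these calls add no evidence. Of the 24 genes described next, Serpina11, Gpm6a and Polr3f were among these 34. A gene was higher in KO at all 3 times in 1659 cases (11.4%) and lower in 2027 (13.9%). At 1.5 and 6 h alone, without the array labelled KO 24 h, these were 2910 higher (20%) and 3692 lower (25.4%). All 3 KO values lay above all 3 WT values for 757 genes (5.2%) and below them for 815 (5.6%).

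The differences between the paired arrays were wider at the later times, and their pattern did not repeat. At 1.5 h 171 genes were 2-fold or more higher in KO (1.17%) and 226 lower (1.55%). At 6 h 601 were higher (4.13%) and 379 lower (2.6%), and at 24 h 669 (4.59%) and 530 (3.64%). The SD of KO minus WT over genes was 0.43, 0.56 and 0.63 at the 3 times. Across all 14564 genes, which are not independent replicates, KO minus WT at one time was weakly related to that at another, with Pearson's r of -0.12 for 1.5 and 6 h, 0.08 for 1.5 and 24 h and 0.06 for 6 and 24 h. Because no gene passed, the genes below are described by their values and by whether the 3 times had one sign.

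The 12 genes highest in KO throughout were those whose smallest difference over the 3 times was largest. They included the Krüppel-like transcription factors Klf9 and Klf6, the lysosomal acid lipase Lipa, the LIM-domain protein Crip2 and the secreted CAP-family protein Glipr1. Their mean differences were 1.72-fold to 4.51-fold, with standard errors of 0.19 to 0.32 on the log2 scale. The choice of these genes fixes their direction, and adjusted p was 0.932 for each (limma). For 10 of the 12 no KO value overlapped a WT value (5.2% of all genes), which the choice of genes favours.

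Glipr1 stood at 0.23, -0.18 and -0.02 on the WT arrays and at 1.84, 1.43 and 1.26 on the KO arrays at 1.5, 6 and 24 h. Every KO value was more than 1 unit above every WT value, and the mean difference was 1.50 (SE 0.20, 2.83-fold). Lipa, the enzyme that hydrolyses cholesteryl esters and triglycerides in lysosomes, stood at -0.87, -0.96 and -1.10 in WT and at 0.26, 0.29 and 0.30 in KO. Its values hardly varied within a genotype, and the genotypes were 1.26 apart (SE 0.20, 2.39-fold). Klf9, a transcription factor that responds to glucocorticoids and oxidative stress, stood at -1.07, -0.34 and -0.05 in WT and at 0.59, 0.62 and 1.53 in KO. Both genotypes were highest at 24 h, and the groups did not overlap (mean 1.40, SE 0.23). Klf6, an immediate early transcription factor measured with 2 probes, stood at -0.19, 0.68 and 0.60 in WT and at 1.34, 1.70 and 1.47 in KO. The lowest KO value was above the highest WT value, at a mean difference of 1.14 (SE 0.22).

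Crip2 stood at 0.91, 1.11 and 1.25 in WT and at 2.10, 1.98 and 2.49 in KO, above the reference on all 6 arrays, with a mean difference of 1.10 (SE 0.20). Serpina11, a member of the serpin protease inhibitor family, had the largest mean, 2.17 (SE 0.31). It stood at 0.15, -0.77 and 0.11 in WT and at 2.57, 0.56 and 2.88 in KO, so the KO 6 h array was nearer to WT than the others. Gpm6a, a neuronal membrane glycoprotein, stood at -0.93, -1.04 and -1.44 in WT and at -0.01, 0.73 and 1.09 in KO. Its difference was smallest at 1.5 h (0.92) and largest at 24 h (2.53). The mean of 1.74 was 0.47 when probes missing from the arrays of 1 time were added. Polr3f, a subunit of RNA polymerase III, differed by 0.73, 1.73 and 2.13, and Serpinb6b, an intracellular serpin, by 0.79, 0.88 and 2.03. Both were thus largest at 24 h, where the array labelled KO 24 h is used. Acsm2, a mitochondrial acyl-CoA synthetase, had a mean of 0.97, Olfr1166, an olfactory receptor gene, of 0.87, and Rbm11, an RNA-binding protein, of 0.78. The 2 Rbm11 probes had means of 0.37 and 1.20. Olfr1166 and Rbm11 are the pair whose KO and WT values overlapped. Serpin, olfactory receptor and other multi-copy family probes can bind related transcripts, which was not tested here.

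The 12 genes lowest in KO throughout included the insulin-like growth factor receptor Igf1r, the retinoic acid carrier Crabp1, the ribosomal protein Rps24 and the splicing factor subunit Snrpd3. Their mean differences were 1.67-fold to 2.75-fold, and for 11 of the 12 no KO value overlapped a WT value (5.6% of all genes), which the choice of genes again favours. All 12 were measured with 1 probe, as were 10 of the 12 higher genes. Adjusted p was again 0.932 for each (limma).

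**Figure D1:**
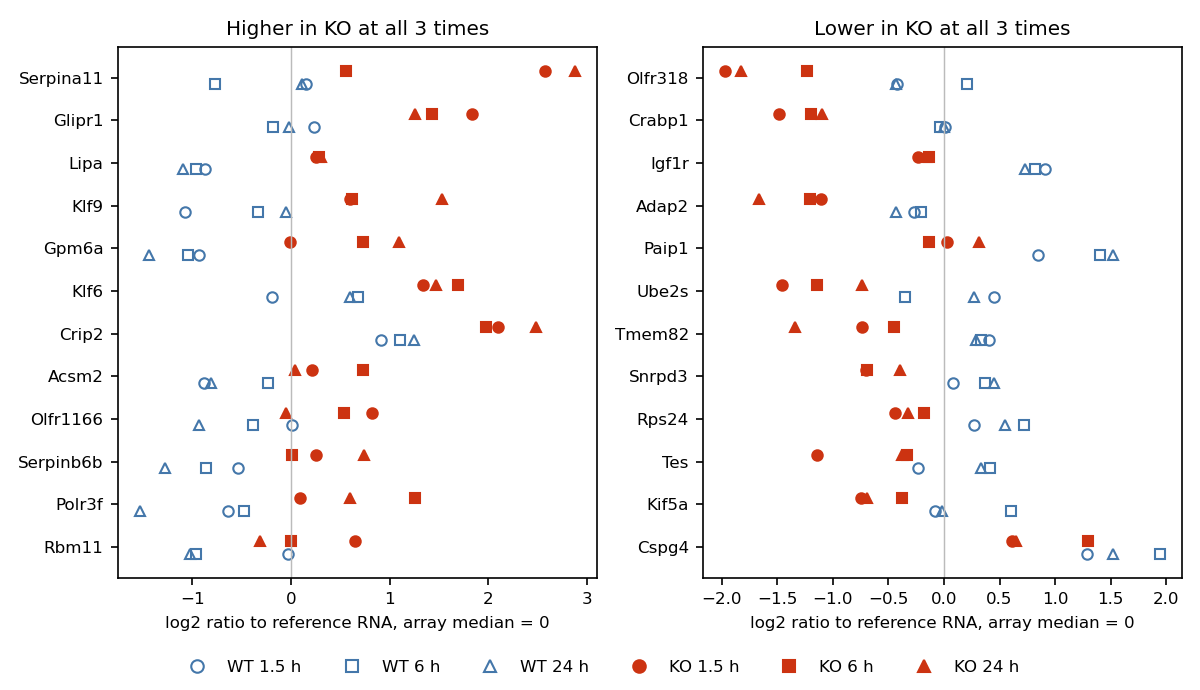
Log2 ratio to the reference RNA, with the array median at 0, of the 12 genes highest and the 12 lowest in KO at all 3 times. Each point is 1 array (open, WT; filled, KO; circle, square and triangle for 1.5, 6 and 24 h), with no error bars because there is 1 array per genotype and time. Glipr1 KO values lie between 1.26 and 1.84 and its WT values between -0.18 and 0.23, and Igf1r KO values lie between -0.23 and -0.13 with WT values between 0.73 and 0.91.

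Igf1r stood at 0.91, 0.82 and 0.73 in WT and at -0.23, -0.13 and -0.17 in KO, a mean difference of -0.995 (SE 0.20, 1.99-fold lower). Each genotype varied by less than 0.2 over the 3 times, so the groups were well apart. Crabp1, which binds retinoic acid in the cytoplasm, stood at 0.01, -0.03 and 0.00 in WT and at -1.48, -1.19 and -1.10 in KO. The WT values were nearly equal, and the mean difference was -1.25 (SE 0.20). Adap2, a GTPase-activating protein for Arf6, stood at -0.27, -0.21 and -0.43 in WT and at -1.10, -1.21 and -1.67 in KO. KO was lowest at 24 h, and the mean difference was -1.02 (SE 0.20). Olfr318, an olfactory receptor gene, had the largest of these differences, -1.46 (SE 0.20).

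Rps24, a component of the small ribosomal subunit, stood at 0.27, 0.72 and 0.55 in WT and at -0.44, -0.18 and -0.33 in KO, with a mean of -0.83 (SE 0.20). This mean was -0.45 with the trend in spot order removed and -0.47 when probes missing from 1 time were added. Paip1, which joins the poly(A)-binding protein to translation initiation factors, stood at 0.85, 1.40 and 1.52 in WT and at 0.03, -0.14 and 0.32 in KO. The groups of both genes did not overlap. Snrpd3, a core protein of the spliceosome, differed by -0.78, -1.07 and -0.85. Ube2s, a ubiquitin-conjugating enzyme that works with the anaphase-promoting complex, stood at 0.45, -0.35 and 0.27 in WT and at -1.46, -1.14 and -0.74 in KO. Its difference was largest at 1.5 h (-1.91). The remaining genes were Tmem82, a transmembrane protein (mean -1.19), the focal adhesion protein Tes (-0.79), the neuronal kinesin Kif5a (-0.78) and the pericyte proteoglycan Cspg4 (-0.74). Cspg4 is the gene whose groups overlapped, by less than 0.01.

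Among NF-kB subunits, inhibitors and feedback genes, 5 of 26 measured members were higher in KO at all 3 times and 1 was lower, against 11.4% and 13.9% of all genes. The list median of KO minus WT was 0.13 at 1.5 h, -0.17 at 6 h and 0.16 at 24 h, against -0.01, -0.05 and 0.01 over all genes. At 1.5 and 6 h alone 6 members were higher and 5 lower, against 20% and 25.4% of all genes. The mean over the times was above 0 for 12 members and below it for 14, with a median of -0.02. The 4 with the largest mean in size were all higher in KO, and 1 of them, Ikbke, had an unadjusted p under 0.05.

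Ikbke, the kinase IKK-epsilon, stood at -0.66, -0.92 and -0.98 in WT and at -0.32, -0.22 and -0.13 in KO, a mean difference of 0.63 (SE 0.21). All KO values were above all WT values. Tnfaip3, which encodes the ubiquitin-editing inhibitor A20 and carries the kB letters printed above, stood at 0.74, 0.53 and 0.59 in WT and at 1.55, 0.67 and 1.04 in KO. Its difference was 0.81 at 1.5 h and 0.14 at 6 h, where the KO value lay within the WT range. Bcl3, a nuclear IkB protein that works with the p50 and p52 subunits, stood at 0.15, -0.14 and -0.21 in WT and at 0.97, 0.01 and 0.21 in KO. Like Tnfaip3 it differed most at 1.5 h (0.82), and its KO 6 h value lay within the WT range. Map3k8, the kinase Tpl2 that acts upstream of ERK, differed by 0.22 and 0.24 at 1.5 and 6 h and by 0.93 at 24 h. The member lower at all 3 times, named after its values were seen, was Ikbkg, the regulatory subunit NEMO of the IkB kinase, with -0.02, -0.55 and -0.64. Its 4 probes disagreed, with means of -1.89 to 0.43.

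The other members with kB letters were taken from the promoter search, outside the rule for named genes and without regard to their values. Across the NF-kB, CC chemokine, CXC and CX3C chemokine and effector lists, 65 genes had a promoter and 12 held the kB letters. At 1.5 h 10 of the 12 were higher in KO, against 49.4% of all genes, with a median of 0.34. At 6 h 3 were higher, against 45.2%, with a median of -0.22, and at 24 h 9, against 51.2%, with a median of 0.27. The majority thus lay above 0 at the early and late time and below it between them, on single arrays. This order of signs is not particular to these genes, since the proteasome list had it too (medians 0.07, -0.34 and 0.16). Of the 12, only Tnfaip3 and Cyld, a deubiquitinase that restrains NF-kB, were higher at all 3 times (11.4% of all genes). The counts at 1.5 and 6 h alone were 3 higher and 2 lower (20% and 25.4% of all genes). Of the 12, 0 had an unadjusted p under 0.05 (limma).

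Nfkbia, which encodes the inhibitor IkB-alpha, stood at -0.08, 0.02 and -0.19 in WT and at 0.07, -0.18 and -0.02 in KO. The genotypes overlapped, and the differences were 0.15, -0.19 and 0.17. Ccl20, a ligand of the receptor CCR6, stood at 2.07, 3.14 and 1.77 in WT and at 3.44, 2.58 and 2.43 in KO. WT peaked at 6 h and KO at 1.5 h, so that KO minus WT was 1.37 at 1.5 h and -0.56 at 6 h. Cxcl1, a neutrophil chemokine, stood at -1.66, -2.07 and -2.49 in WT and at -1.23, -2.69 and -2.06 in KO, a difference of 0.43, -0.62 and 0.43. Cxcl3, another ligand of the same receptor, followed the same order of signs with differences of 0.39, -0.94 and 0.09. Cxcl2 differed by 0.66, 0.56 and -0.41, so the 3 chemokines with the same 10 letters were all higher in KO at 1.5 h and did not share a sign at 6 or 24 h. Nfkb2, the p100 precursor of p52, differed by -0.08, -0.07 and 0.03. Over all tested genes the letters were about as frequent in promoters of genes higher at all 3 times (2.41%, 32 of 1329) as in those of genes lower (1.96%, 32 of 1635).

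Of TNF receptor signalling genes, 2 of 25 were higher and 2 lower at all 3 times, at or below the share of all genes, and 0 had an unadjusted p under 0.05. Tnf itself stood at -0.14, -0.65 and -1.15 in WT and at -0.65, 0.07 and -0.16 in KO. It was lower in KO at 1.5 h (-0.51) and higher at 6 and 24 h (0.72 and 0.99). Map2k4, a kinase upstream of JNK, stood at 1.10, 1.18 and 0.90 in WT and at 0.96, 0.12 and 0.50 in KO, with the KO 6 h array lowest. The ubiquitin ligase subunits Rbck1 and Sharpin, partners in the linear ubiquitin complex, differed in opposite directions, by a mean of -0.40 and 0.37.

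CXC and CX3C chemokines, which draw neutrophils and T cells, were the inflammatory list with the most even medians. They were 0.31, 0.24 and 0.24 at the 3 times, while the median of the gene means was 0.11, and 0.24 with the trend in spot order removed. Of 15 members 5 were higher in KO at all 3 times (11.4% of all genes) and 0 lower (13.9%). At 1.5 and 6 h alone 8 were higher, against 20% of all genes, and 1 lower, against 25.4%. Cxcl10, a T cell chemokine induced by interferon and TNF-alpha, stood at 0.16, -0.11 and -0.35 in WT and at 0.83, 0.22 and -0.03 in KO. Both genotypes were highest at 1.5 h, and KO was above WT by 0.66, 0.33 and 0.33 with overlapping ranges. Cxcl9, a related ligand of CXCR3, stood at 0.08, -0.34 and -0.13 in WT and at 0.57, 0.49 and 0.17 in KO. As averages of its 2 probes, all KO values lay above all WT values, with a mean of 0.54 (SE 0.21). The probes differed, with means of 0.09 and 0.98. The platelet chemokines Pf4 and Ppbp changed sign between times, with differences of -0.25, 1.68 and 1.00 for Pf4 and 1.05, -1.95 and -1.41 for Ppbp.

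CC chemokines, which mainly draw monocytes and lymphocytes, held 4 of 20 members higher and 1 lower at all 3 times, against 11.4% and 13.9% of all genes, with medians of 0.07, 0.17 and 0.03. Without the 24 h pair 6 were higher and 2 lower, against 20% and 25.4% of all genes. Ccl12, a monocyte chemokine, had a mean difference of 1.81 (SE 0.77), of which nearly all came from the WT 24 h array. It stood at -0.18, -0.75 and -4.49 in WT and at -0.06, 0.10 and -0.01 in KO. At 1.5 and 6 h the difference was 0.12 and 0.85. Ccl28 differed by 1.48 at 6 h and by -0.09 at 1.5 h, and Ccl22, a ligand of CCR4, by 0.38, -0.51 and -1.56. Interleukins and colony-stimulating factors held 2 of 21 members higher and 1 lower, with a median of -0.21 at 1.5 h, near 0 at 6 h and 0.38 at 24 h. Il33, a nuclear alarmin cytokine, differed by 0.06, 1.28 and 0.51, and Il1rn, the interleukin-1 receptor antagonist, by 0.25, -0.36 and -0.96.

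Among 29 inflammatory effectors, which include adhesion molecules, complement and acute-phase proteins, 7 were higher in KO at all 3 times and 3 lower (11.4% and 13.9% of all genes). The counts at 1.5 and 6 h alone were 8 and 5 (20% and 25.4%). The list medians were -0.11, 0.28 and 0.14. Icam1, an adhesion molecule for leukocytes and a known NF-kB target, stood at -0.54, -0.24 and -1.88 in WT and at 0.02, 0.18 and -0.03 in KO. All KO values were above all WT values, by 0.56 and 0.41 at 1.5 and 6 h and by 1.86 at 24 h, where the WT array stood low. Has2, a hyaluronan synthase, went the other way, at 1.57, 2.29 and 1.85 in WT and at 1.19, 0.94 and 1.52 in KO. No KO value reached a WT value, and the mean was -0.69 (SE 0.27). C1s1, a complement protease, differed by -0.47, 0.98 and 2.07.

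**Figure D2:**
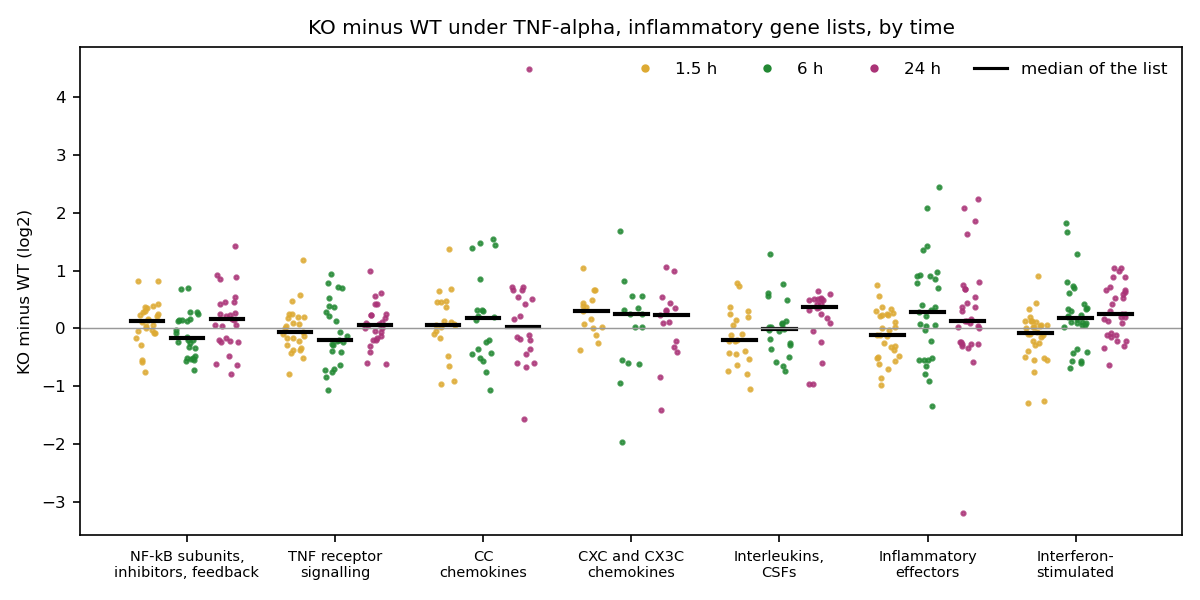
KO minus WT on the log2 scale for each measured member of 7 gene lists of inflammation, by time (yellow, green and purple for 1.5, 6 and 24 h). Each point is 1 gene on 1 pair of arrays and each bar is the list median. The CXC and CX3C chemokine medians are 0.31, 0.24 and 0.24, and those of the NF-kB list 0.13, -0.17 and 0.16. The highest point, Ccl12 at 24 h, is 4.48.

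Matrix metalloproteinases and their inhibitors, which remodel extracellular matrix, split evenly, with 5 of 23 higher and 5 lower at all 3 times (11.4% and 13.9% of all genes). The counts at 1.5 and 6 h alone were 8 and 7 (20% and 25.4%). Mmp14, a membrane-bound collagenase, stood at 0.48, 1.40 and 1.71 in WT and at 1.92, 2.13 and 2.33 in KO. Both genotypes were higher at later times, the groups did not overlap, and the mean difference was 0.93 (SE 0.24). Mmp10, a stromelysin, stood at 0.33, 1.61 and 0.73 in WT and at -0.39, 0.31 and 0.13 in KO. KO was below WT throughout, with a mean of -0.87 (SE 0.23). Mmp17, another membrane-bound protease, differed by -0.19, -1.50 and -0.83.

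Interferon-stimulated genes, which TNF-alpha can induce through autocrine interferon, held 9 of 30 members higher in KO at all 3 times and 2 lower (11.4% and 13.9% of all genes). At 1.5 and 6 h alone 12 were higher and 5 lower (20% and 25.4%). The list medians were -0.08, 0.18 and 0.25. Ddx58, the cytosolic RNA sensor RIG-I, stood at -0.18, -0.15 and -0.13 in WT and at -0.05, 0.59 and 0.92 in KO. WT was flat and KO higher at each later array, with a mean difference of 0.64 (SE 0.24). Dhx58, the related sensor LGP2, differed by 0.02, 1.82 and 0.19, almost wholly through the WT 6 h array at -1.87. Its 2 probes had means of 0.15 and 1.21. MHC class I antigen presentation genes held 1 of 16 higher and 2 lower at all 3 times. Tapbp, the peptide-loading chaperone tapasin, had a mean difference of -0.45, while Psmb9, an immunoproteasome subunit, differed by -0.37, 0.73 and 0.79.

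Immediate early genes, the first wave of transcription after a stimulus, held 7 of 30 higher and 5 lower at all 3 times (11.4% and 13.9% of all genes). The counts at 1.5 and 6 h alone were 7 and 8, near the shares of all genes (20% and 25.4%). Besides Klf6, Dusp6, a phosphatase that inactivates ERK, stood at -1.51, -1.34 and -1.46 in WT and at -0.98, -0.86 and -0.93 in KO. The difference was nearly the same at the 3 times (0.52, 0.49 and 0.53) and the groups did not overlap. The 2 Dusp6 probes had means of 0.15 and 0.88. Egr2, a zinc finger transcription factor, differed by -0.79, -0.51 and -0.63. Fos, a subunit of AP-1, stood at -3.13, -4.38 and -3.93 in WT and at -3.07, -2.43 and -2.78 in KO, far below the reference on all arrays.

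Lists of growth genes lay mostly on the lower side. Of 67 cytosolic ribosomal proteins, 26 were lower in KO at all 3 times and 1 was higher, against 13.9% and 11.4% of all genes. Without the array labelled KO 24 h, 46 were lower and 4 higher, against 25.4% and 20% of all genes. The list medians were -0.17, -0.40 and -0.04. The differences were small: besides Rps24, the next largest were Rps15 (mean -0.46), Rpl30 (-0.45) and Rpl35a (-0.45), and 1 member of 67 had an unadjusted p under 0.05. Rps15, of the small subunit, stood at -0.28, -0.05 and -0.36 in WT and at -0.69, -0.71 and -0.67 in KO, with no overlap. Ribosomal protein genes have many processed pseudogenes that share sequence, and whether the probes separate them was not tested.

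Of 52 genes of the cell cycle and DNA replication, 18 were lower in KO at all 3 times and 3 higher (13.9% and 11.4% of all genes). The counts at 1.5 and 6 h alone were 29 and 3 (25.4% and 20%). The list medians were -0.29, -0.15 and -0.15. Mcm5, a subunit of the replicative helicase, stood at -0.36, -0.33 and -0.40 in WT and at -1.12, -0.73 and -0.87 in KO. Its WT values were nearly equal, the groups did not overlap and the mean difference was -0.54 (SE 0.20). Prim1, the catalytic primase subunit, stood at -1.15, -1.22 and -1.13 in WT and at -2.18, -1.42 and -1.68 in KO, lowest at 1.5 h. Cdc20, an activator of the anaphase-promoting complex, differed by -0.93, -0.27 and -0.44, with means of -0.84 to -0.19 for its 3 probes. Tk1, thymidine kinase, differed by -1.22 and -0.58 at 1.5 and 6 h and by 0.19 at 24 h. Among cell cycle inhibitors and senescence genes, 6 of 25 were higher and 6 lower. Cdkn1a, which encodes the cyclin-dependent kinase inhibitor p21, stood at 1.74, 2.02 and 2.19 in WT and at 2.48, 2.58 and 2.68 in KO. All KO values exceeded all WT values, with a mean of 0.59 (SE 0.20), and both genotypes were higher at later times. Ccng1, another p53 target, differed by -0.22, -0.38 and -1.24. Its 3 probes disagreed, with means of -1.64 to 0.08.

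Counts of lower and higher members at all 3 times follow for other lists of housekeeping functions, to be read against 13.9% and 11.4% of all genes. They were mitochondrial respiratory chain genes (13 lower and 2 higher of 48), cholesterol and fatty acid synthesis (9 and 2 of 22), DNA repair (10 and 5 of 41), heat shock and unfolded protein response (7 and 0 of 26), antioxidant enzymes (6 and 1 of 27) and proteasome subunits (5 and 1 of 29), the last near the share of all genes. Without the 24 h pair the counts in that order were 24 and 3, 11 and 3, 16 and 6, 7 and 3, 9 and 1, and 12 and 1. The shares of all genes were then 25.4% and 20%. Hspa5, the chaperone BiP, stood at 0.52, 0.58 and 0.34 in WT and at 0.11, 0.34 and -0.30 in KO. Sqle, an enzyme of cholesterol synthesis, had a mean difference of -0.44, while Nsdhl, of the same pathway, was higher by 1.06 (SE 0.27). The probes of each disagreed in size, with means of -0.87 and -0.02 for the 2 of Sqle and 0.19 to 2.73 for the 3 of Nsdhl. Glycolysis and hypoxia genes held 5 of 28 lower and 3 higher. Bnip3, a mitophagy receptor induced by hypoxia, stood at -1.43, -1.40 and -1.70 in WT and at -0.91, -0.81 and -0.76 in KO. Its groups did not overlap, with a mean of 0.68 (SE 0.21).

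**Figure D3:**
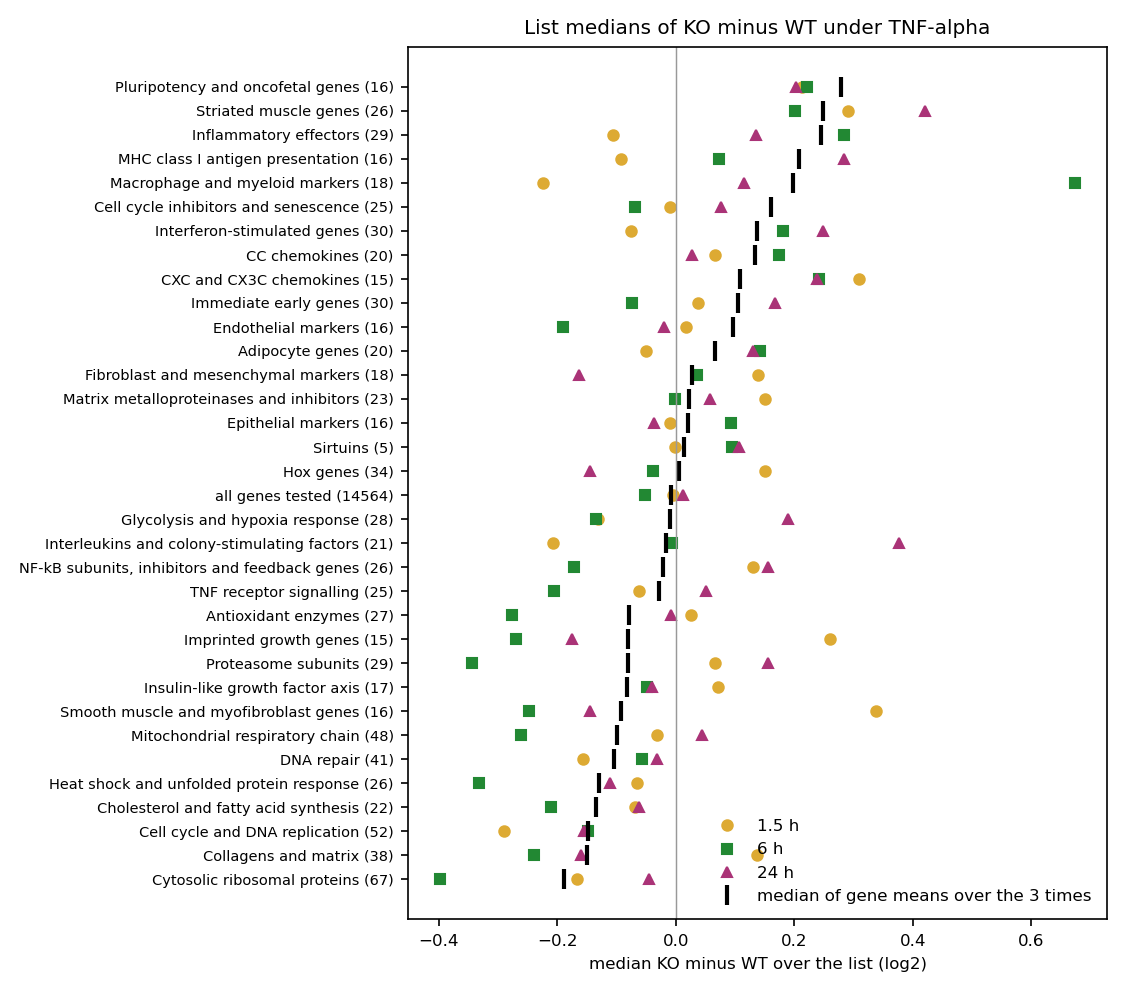
Median KO minus WT (log2) over each of the 33 gene lists and over all tested genes, with the number of measured genes in brackets. Circles, squares and triangles are the medians at 1.5, 6 and 24 h, and the bar is the median of the gene means over the 3 times. Ribosomal protein genes are lowest at 6 h (-0.40), and macrophage and myeloid markers are furthest right at 6 h (0.67) and left of 0 at 1.5 h (-0.22).

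In the insulin-like growth factor axis 1 of 17 members was higher and 3 lower at all 3 times (11.4% and 13.9% of all genes). Besides Igf1r, Igfbp4, a binding protein that holds the growth factors, stood at -2.15, -1.92 and -2.06 in WT and at -2.75, -2.55 and -2.58 in KO. The groups did not overlap, and the mean was -0.58 (SE 0.20). Igf2, the imprinted fetal growth factor, stood well above the reference on all arrays, at 4.37, 4.25 and 4.17 in WT and at 4.95, 4.24 and 5.46 in KO. At 6 h the genotypes were within 0.01 of each other. Igfbp5 behaved alike, with differences of 1.06, -0.05 and 0.69.

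Collagens and other matrix genes held 11 of 38 members lower in KO and 3 higher (13.9% and 11.4% of all genes), with medians of 0.14, -0.24 and -0.16. The counts at 1.5 and 6 h alone were 12 and 8 (25.4% and 20%). Postn, the matrix protein periostin, stood at 1.59, 2.69 and 2.18 in WT and at 1.07, 0.70 and 2.02 in KO, with the largest gap at 6 h. Mfap5, a microfibril protein, stood at 0.86, 2.01 and 1.79 in WT and at 0.69, 0.44 and 0.73 in KO. WT was higher at the later times and KO was not, and the mean difference was -0.93 (SE 0.30). Col15a1 had the largest mean of the list, -1.31, because the WT 1.5 h array stood at 2.82 while the other 5 arrays lay between -0.86 and -0.17. Among fibroblast and mesenchymal markers 3 of 18 were higher and 3 lower at all 3 times. Prrx1, a mesenchymal transcription factor, stood at 0.95, 1.57 and 1.41 in WT and at 0.57, 0.15 and 0.33 in KO. Thy1, a fibroblast surface protein, differed by -0.38, -0.49 and -0.51, with means of -0.84 and -0.08 for its 2 probes. Dcn, the matrix proteoglycan decorin, went the other way at 6 h, with differences of -0.19, 2.27 and 0.33. Its 4 probes had means of 0.36 to 1.67. Of the 18 markers 10 had a mean above 0, and the median of the means was 0.03. The list's median level ranged from 0.64 to 0.90 on the WT arrays and from 0.46 to 0.68 on the KO arrays. The part of cell composition in any of these differences was not tested, and fewer cells of a type and less RNA per cell cannot be told apart in such samples.

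Striated muscle genes had a median above 0 at each time. Of 26 measured, 10 were higher at all 3 times and 1 lower (11.4% and 13.9% of all genes). The counts at 1.5 and 6 h alone were 13 and 1 (20% and 25.4%). The medians of KO minus WT were 0.29, 0.20 and 0.42, and 6 members had an unadjusted p under 0.05, against 1.94% of all genes for higher ones. The list's median level was -0.22 to -0.10 on the WT arrays and 0.04 to 0.15 on the KO arrays, so the level stayed close to the reference in both. Actc1, cardiac alpha-actin, stood at -0.29, -0.22 and -0.19 in WT and at 0.95, 0.28 and 0.83 in KO, a mean difference of 0.92 (SE 0.23). Mylpf, a myosin light chain of fast muscle, stood at -0.23, -0.24 and -0.35 in WT and at 0.42, 0.35 and 0.69 in KO. The WT values of both genes were within 0.2 of each other and below every KO value. Tnni1, slow muscle troponin I, was higher by 0.58, 0.77 and 0.69, and Tnnt2, cardiac troponin T, by 0.79 and 1.64 at 1.5 and 24 h with -0.02 at 6 h.

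**Figure D4:**
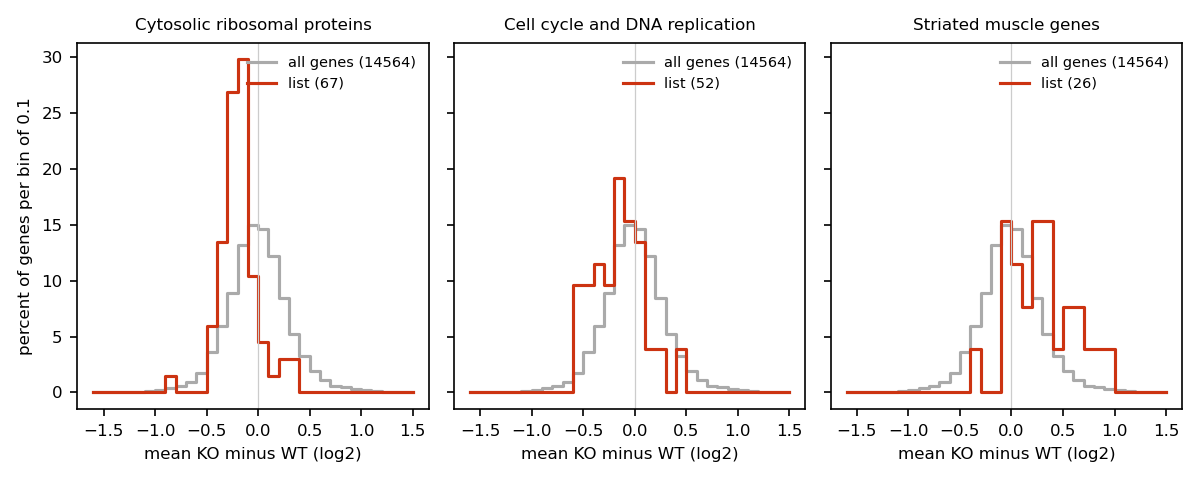
Distribution of the mean KO minus WT over the 3 TNF-treated times (log2, bins of 0.1) as a percent of genes, for all 14564 tested genes (grey; values beyond the axis not drawn) and for 3 lists (red). Ribosomal protein genes (67) and cell cycle genes (52) lie to the left, with medians of -0.19 and -0.15, and striated muscle genes (26) to the right, with a median of 0.25, all within the range of the other genes.

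Pluripotency and oncofetal genes held 6 of 16 members higher and 0 lower at all 3 times (11.4% and 13.9% of all genes), with medians of 0.21, 0.22 and 0.20. The counts at 1.5 and 6 h alone were 6 and 1 (20% and 25.4%). Their median level was -0.17 to -0.12 on the WT arrays and 0.04 to 0.20 on the KO arrays. Tdgf1, the embryonic co-receptor Cripto, stood at -0.17, -0.48 and -0.16 in WT and at 0.62, 0.11 and 1.56 in KO, and Tert, the telomerase reverse transcriptase, at -0.42, -0.44 and -0.81 in WT and at -0.10, 0.11 and 0.39 in KO. Both had groups apart, with the widest gap at 24 h. The mean of Tdgf1, 1.03, was 0.49 when probes missing from 1 time were added. Hox genes, which encode positional identity, held 6 of 34 higher and 1 lower (11 and 3 at 1.5 and 6 h alone), against the same shares. Hoxc6 stood at -0.35, -0.20 and -0.20 in WT and at 0.22, 0.63 and 0.23 in KO, a mean of 0.61 (SE 0.20). The 2 Hoxc6 probes had means of 0.29 and 0.92. Of imprinted growth genes, 0 of 15 had one sign at all 3 times. Smooth muscle and myofibroblast genes (2 higher and 3 lower of 16), endothelial markers (2 and 4 of 16), epithelial markers (3 and 2 of 16), adipocyte genes (1 and 2 of 20) and sirtuins (1 and 0 of 5) were more evenly split.

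Macrophage and myeloid markers had medians of -0.22, 0.67 and 0.12, with 2 of 18 higher and 1 lower at all 3 times (11.4% and 13.9% of all genes). Their median level on the WT arrays was lowest at 6 h, at -1.50, where the KO array stood at -0.59. Laptm5, a lysosomal protein of blood cells, stood at -2.91, -3.08 and -2.72 in WT and at -2.40, -2.43 and -2.02 in KO, well below the reference on all arrays. The leukocyte genes Ptprc and Itgam stood high on the WT 24 h array alone, at 0.71 and 3.16. On the other 5 arrays Ptprc lay between -3.00 and -1.76 and Itgam between -0.71 and 0.34. The 2 Ptprc probes disagreed, with mean KO minus WT of -2.06 and 0.51. Cd83, a surface protein of activated dendritic cells and B cells, stood at 7.70 on the same array and between -0.47 and 1.25 on the others. The median of all myeloid markers on that array was -0.58, and their part in other results was not tested.

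The largest differences at a single time came mostly from 1 array. Among the 24 genes that were the 4 highest and 4 lowest at the 3 times, the array farthest from the others was most often a WT array (15 of 24: WT 1.5 h in 2, WT 6 h in 7, WT 24 h in 6). Klk1, a kallikrein protease, stood at 6.74 on the KO 1.5 h array and between -2.22 and 0.30 on the rest. Adgrb1, an adhesion receptor, stood at 5.43 on the WT 1.5 h array against -0.76 to 0.42 elsewhere. At 6 h St8sia6, a sialyltransferase, stood at -5.14 on the WT array against 0.12 to 0.68 elsewhere. At 24 h Pzp, a protease-binding plasma protein, stood at -5.16 on the WT array and Krtap31-1, a hair keratin-associated protein, at 5.95. In Krtap31-1 the array labelled KO 24 h also stood apart, at -3.15 (others -0.86 to -0.35), so 2 arrays made its difference of -9.10. Hmox1, the inducible heme oxygenase, varied among WT arrays, at -1.22, 0.85 and -2.37, while the KO arrays stood at 0.65, 0.75 and 0.92. With no second array of the same time, these values have no replicate.

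The untreated arrays show which differences were also seen without TNF-alpha. Of 14365 genes with values on all 10 arrays, the treated minus untreated difference in KO minus WT passed for 0 (limma, 0%), with 1548 at an unadjusted p under 0.05 (10.8%). This count of 0 was not stable: it was 179 without the untreated KO array a and 12 without the untreated KO array b. Across genes, the mean KO minus WT under TNF-alpha had no linear relation to that without it (Pearson's r = -0.01, genes not being independent). For genes with one sign at all 3 treated times, untreated KO shared that sign somewhat more often than over all genes. Of 2008 genes lower in KO at all 3 treated times, 64.6% were also lower in untreated KO, against 53.8% of all genes. Of 1641 higher genes, 51.6% were higher, against 46.2%.

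Of the 12 lowest genes 8 were lower in untreated KO too, each in all 4 pairings of the untreated arrays, as were 28.8% of all genes. Crabp1 differed by -1.48 untreated and by -1.25 treated, Olfr318 by -1.37 and -1.46, Adap2 by -1.20 and -1.02, Rps24 by -0.74 and -0.83, and Igf1r by -0.59 and -0.995. These 5 were thus lower in KO with and without TNF-alpha. Of the 12 highest genes 9 were higher in untreated KO and 4 in all pairings, against 24% of all genes. Glipr1 (1.11 untreated, 1.50 treated) and Crip2 (1.10 and 1.10) were high in both states. Klf9, Klf6 and Lipa were near WT without TNF-alpha, at 0.14, 0.05 and 0.26, while treated they differed by 1.40, 1.14 and 1.26. The treated minus untreated differences of these 3 did not pass (limma, adjusted p of 0.418 to 0.426).

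Gpm6a was lower in untreated KO (-1.28) and higher in treated KO (1.74), and Cspg4 was higher in untreated KO (0.69) and lower in treated KO (-0.74). Neither passed (adjusted p = 0.418, limma). The gene nearest to passing was Slc15a2, a peptide transporter, at -2.32 untreated and 0.48 treated, a difference of 2.81 (SE 0.26, adjusted p = 0.0884, limma). The striated muscle list had an untreated median of 0.40 and the cell cycle list one of -0.46. Pluripotency and oncofetal genes had an untreated median of 0.02 and interferon-stimulated genes one of -0.34, against a median of gene means of 0.28 and 0.14 under TNF-alpha.

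**Figure D5:**
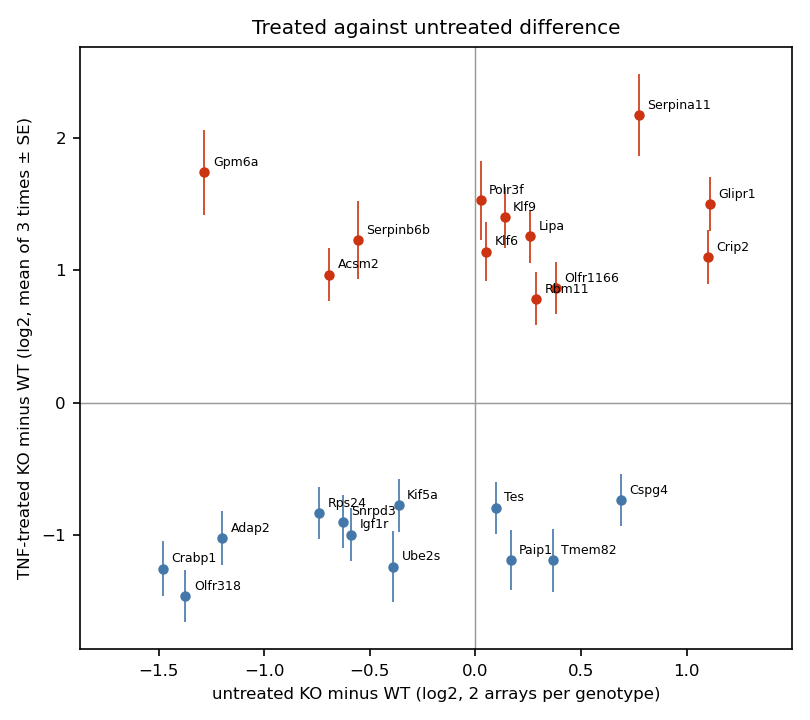
The vertical axis is the mean KO minus WT over the 3 TNF-treated times (log2), with bars of ± the moderated SE of limma. The horizontal axis is KO minus WT of the untreated arrays (log2, means of 2 arrays per genotype). Shown are the 12 highest (red) and 12 lowest (blue) genes. Glipr1 and Crip2 lie high on both axes, Crabp1, Olfr318 and Adap2 low on both, and Gpm6a lies at -1.28 untreated and 1.74 treated.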

How the data were processed

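The deposited table gives a single log ratio for each spot, taken here as log2 with Cy5 over Cy3. The dyes are per the labels, and the sources used here do not say how the authors normalized these ratios. Spots complete on the 6 treated arrays (37767 of 38784) were kept. A probe was named where the platform table gave 1 symbol (22204 probes, all matched to RefSeq by Entrez ID). The 15892 complete probes without one were tested apart (limma, 0 passed, 541 at an unadjusted p under 0.05). Probes of a gene were averaged (9731 genes had 1 probe), and every array was shifted to a median of 0 over genes. KO minus WT was tested with limma 3.58.1 in R 4.3.3 (lmFit and eBayes, two-sided, time as a block, 2 residual degrees of freedom, prior 4.62). Treated minus untreated differences used all 10 arrays (4 residual degrees of freedom, prior 3.77). Pairing by time comes from the labels. Deviations of same-time arrays correlated over genes at -0.01, -0.16 and 0.01, so no shared effect of time was seen over all genes together. Single genes were not tested for one. Genes were named by rule: Sirt6, the 12 highest and lowest by smallest difference over times, up to 4 per list by mean difference, the 4 highest and lowest at each time, and the 4 smallest p per direction of the treated minus untreated difference. Some named by the rule are left out. The comparison, the 33 lists and the rules were chosen with earlier results of these data known. The test was also run on simulated data, whose outcome is not used here. The number of arrays limits the precision.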

Additional observations from a re-analysis of the deposited data

Results flagged for a closer look

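For 21 of 110 named genes, KO minus WT had one sign at all 3 TNF-treated times and the opposite sign in all 4 pairings of the untreated arrays. Over all 14365 genes 685 did so (4.77%), but most genes have no single sign at the 3 times, which the rules for named genes favour. Of genes higher at all 3 treated times, 384 of 1641 (23.4%) were lower in all 4 untreated pairings. Of genes lower at all 3, 301 of 2008 (15%) were higher in all 4. The 110 also hold genes without one sign at the 3 times, such as Sirt6 and Tnf, so 21 of 110 cannot be set directly against these shares. Whether the 21 are an excess was not tested. Slc15a2, Prh1, Olfr64, Rtl6, Cspg4 and Tmem82 were also picked by the p of the treated minus untreated difference. None of the differences between the states passed (limma, adjusted p of 0.0884 to 0.494, n = 3 treated pairs and 2 untreated arrays per genotype). Treated minus untreated, KO minus WT was higher by 3.03 for Gpm6a, 1.79 for Serpinb6b, 1.49 for Map3k8, 3.66 for Ccl12, 1.78 for Cxcl9 and 1.87 for Icam1. It was also higher by 1.16 for Dhx58, 1.05 for Ddx58, 1.80 for Fos, 1.22 for the DNA damage-binding gene Ddb2, 1.74 for Nsdhl, 0.68 for the proteasome subunit gene Psmd8, 2.81 for Slc15a2 and 2.23 for the salivary protein gene Prh1. It was -1.55 for Tmem82, -1.42 for Cspg4, -0.63 for Rpl30, -1.02 for the stress sensor gene Gadd45g, -0.90 for the VEGF receptor gene Flt1, -1.59 for the olfactory receptor gene Olfr64 and -1.92 for the retrotransposon-derived gene Rtl6.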

How the results depend on the processing

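The count of 0 genes past the threshold was the same without centring, with quantile normalization, equal spread, the trend in spot order removed, probes with 2 of 3 times, a robust prior, array weights, variance from all 10 arrays, each probe alone, an adjusted p under 0.1 and with any 1 pair left out (limma). Among the 7282 genes with the larger spread, 34 passed and 355 had an unadjusted p under 0.05, where all genes shared 1 standard error. That spread included the difference under test. Serpina11, Gpm6a and Polr3f were the members of the 24 genes among these 34, and 11 named genes in all passed under it. With each probe alone 961 probes had an unadjusted p under 0.05. Leaving out 1 pair gave 405 (without 24 h) to 874 such genes. With no replicate block for time 0 passed and 740 had an unadjusted p under 0.05. Genes higher at every time used were 2910 to 3919 with a pair left out, and lower ones 3692 to 4051, since fewer times must share a sign.

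For the treated minus untreated difference, leaving out 1 array or pair gave 0 to 179 genes past the threshold (179 without untreated KO array a, 12 without b, 1 without the 1.5 h pair), with 681 to 2610 at an unadjusted p under 0.05. The letters as a replicate block gave 0 and 1418. The cause was not tested. Of 110 genes run, 104 kept the sign of their mean under every alternative. With a pair left out Itgam was at -2.07 to 0.0773, Ptprc at -1.62 to 0.36, Nfkbia at -0.0218 to 0.16, Cxcl1 at -0.0932 to 0.43 and Cxcl3 at -0.42 to 0.24. Cxcl1 was at -0.13 with quantile normalization and -0.0046 with the trend in spot order removed, and Nfkb2 at 0.0078 with quantile normalization. The mean of 58 genes moved by over 1.5 times with a pair left out and that of 14 under another alternative, among them Gpm6a (0.47), Tdgf1 (0.49), C1s1 (0.51) and Rps24 (-0.47) with probes missing from 1 time, Rps24 (-0.45), Cxcl9 (0.34) and Dhx58 (0.44) without the spot trend, and Igf2 (1.11) with quantile normalization. The setting with the variance from all 10 arrays kept only probes with a value on all 10, and there Rbm11 was at 0.37 and Dhx58 at 0.15. These values lie near the lower of the 2 probe means of each gene (0.37 and 1.20 for Rbm11, 0.15 and 1.21 for Dhx58). With a pair left out, list medians reached -0.16 and 0.02 for the insulin-like growth factor axis, -0.05 and 0.11 for epithelial markers, 0.17 and 0.41 for pluripotency genes, 0.02 for MHC class I, 0.01 for cell cycle inhibitors and 0.18 for CXC chemokines and for sirtuins. The counts for 1.5 and 6 h alone and the untreated values beside single genes were added after seeing the data. The 1 array per genotype and time and the doubt over the label of the KO 24 h array limit every result.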
